A study of Mus musculus with 26 samples.

Results

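The genes described here are 10 that serve vasoconstrictor hormones in the artery wall. They are the receptors Agtr1a, Avpr1a, Ednra, Ednrb, Tbxa2r, Htr2a, Htr2b and Htr1b, the ligand gene Edn1 and the enzyme gene Ace. They were picked out by symbol, from a set drawn up with earlier results of these data known, and 10 of 10 were found among the 21031 genes of the deposited normalized table. RNA sequencing measured them in mesenteric arteries, the small vessels that feed the gut, of male mice aged 8 weeks. The 26 libraries form 4 comparisons, which ask what loss of pannexin 1, a membrane channel that releases ATP, or a change of one of its phosphorylation sites does. The groups were 3 wild-type (WT) and 3 global Panx1 knockout (Panx1 KO) libraries, 3 Y198F controls (genotype Y198F-/-) and 3 Y198F mutants (Y198F+/+), 4 S205A controls (S205A-/-) and 4 S205A mutants (S205A+/+), and 3 Y308F controls (Y308F-/-) and 3 Y308F mutants (Y308F+/+). No group was given a treatment in the labels. How the alleles were made, the strain of the mice and whether each library came from 1 mouse are not given in the sources used here. The design text gives 3 vascular trees for each mutant, while the S205A groups have 4 libraries each. The p-values therefore measure the spread between these libraries, which may be partly technical.

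Vasoconstrictor hormones act on arterial smooth muscle mainly through G protein-coupled receptors that raise intracellular calcium, so that the muscle contracts. Endothelin is made by the endothelium from the precursor that Edn1 encodes, and angiotensin II is released from angiotensin I by the converting enzyme that Ace encodes, which sits on the endothelial surface. Thromboxane and serotonin come largely from platelets, and vasopressin from the pituitary. In arteries most of these receptors are known from smooth muscle, while the endothelin receptor of Ednrb also acts on endothelium, where it promotes relaxation.

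Library depth ran from 14.9 to 23.6 M counts. In 9 libraries the library name carries a number that begins with 22, here called the 22 series: all Y198F mutants, the S205A controls other than control 4 and the S205A mutants other than mutant 1. What this number stands for is not stated. Annotated ribosomal RNA took 0.0831% to 0.139% of the counts in that series and 2.32% to 7.09% in the other 17 libraries. Every Y198F mutant and no Y198F control belongs to it, so the mutation and the series cannot be told apart in that comparison. Panx1 itself had 11 to 27 counts (0.582 to 1.36 CPM) in the knockout and 61 to 96 in wild type. Outside the knockout, S205A control 1 had 16 counts (0.830 CPM), inside the knockout range, and the other mutant and control libraries had 28 to 95. All 8 smooth muscle markers (Acta2, Myh11, Tagln, Cnn1, Smtn, Myocd, Lmod1 and Des) and all 8 endothelial markers (Pecam1, Cdh5, Tek, Kdr, Erg, Vwf, Cldn5 and Egfl7) were detected in every library. The summed level of the endothelial markers ran from 1186 CPM (counts scaled to library size with TMM factors) in S205A control 1 to 9881 in S205A control 2, while that of the smooth muscle markers ran from 20640 in Panx1 KO 3 to 43089 in S205A control 1. Markers of the tissue around the vessel were uneven: the 6 fibroblast markers summed to 992 to 4197 CPM, the 6 adipocyte markers to 40.2 to 2026, the 6 Schwann cell markers to 57.0 to 451 and the 4 mesothelial markers to 0 to 35.6. Gut epithelial markers summed to at most 4.61 CPM and platelet markers to at most 9.79 CPM in any library.

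The stretches just before the transcription starts of Ace, Edn1, Ednra and Tbxa2r are shown because the first pair followed the endothelial markers across libraries and the second pair the smooth muscle markers, as described further on. They are the 250 bases before the start in RefSeq's table on GRCm38.p6, an earlier build than that of the counts, in the direction of transcription. The table holds 2 starts for Ace and for Tbxa2r, and the window shown is that of the most upstream one. Of the 10 genes 9 matched that table, and Agtr1a did not. Capitals mark matches, on either strand, to TATAA or GGGCGG.
Ace (chr11:105967698-105967947, plus strand): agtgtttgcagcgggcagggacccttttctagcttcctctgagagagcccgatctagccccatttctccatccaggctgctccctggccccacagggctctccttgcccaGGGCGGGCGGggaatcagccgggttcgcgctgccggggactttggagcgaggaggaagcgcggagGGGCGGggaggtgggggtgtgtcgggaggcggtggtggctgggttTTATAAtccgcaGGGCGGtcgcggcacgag
Edn1 (chr13:42301226-42301475, plus strand): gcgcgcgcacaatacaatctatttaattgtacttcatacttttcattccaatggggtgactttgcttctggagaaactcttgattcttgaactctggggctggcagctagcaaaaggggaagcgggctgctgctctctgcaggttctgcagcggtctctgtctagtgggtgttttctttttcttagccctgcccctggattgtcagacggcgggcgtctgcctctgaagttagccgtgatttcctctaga
Ednra (chr8:77724453-77724702, minus strand): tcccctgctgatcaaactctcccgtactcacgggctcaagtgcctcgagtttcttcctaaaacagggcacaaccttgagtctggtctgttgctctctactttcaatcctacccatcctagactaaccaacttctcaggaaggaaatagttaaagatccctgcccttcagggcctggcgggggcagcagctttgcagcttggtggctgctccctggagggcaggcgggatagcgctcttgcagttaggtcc
Tbxa2r (chr10:81328018-81328267, plus strand): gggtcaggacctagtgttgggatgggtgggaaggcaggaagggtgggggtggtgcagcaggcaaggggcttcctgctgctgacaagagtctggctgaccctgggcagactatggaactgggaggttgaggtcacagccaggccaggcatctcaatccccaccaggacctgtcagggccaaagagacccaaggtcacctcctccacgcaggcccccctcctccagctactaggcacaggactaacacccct
The Ace window held TATAA on both strands, in overlapping letters 29 and 30 bases before the start, and 4 copies of GGGCGG between 18 and 140 bases before it. Among all 32841 windows of this length, 22.8% held TATAA and 32.7% held GGGCGG. Neither motif was in the windows of Edn1, Ednra and Tbxa2r. GATAA, found in 22.6% of all windows, was in none of these 4. The same held for TGANTCA, found in 6.75%, and for the CArG box, found in 1.47%. The GC content was 67.2% for Ace, 62.4% for Tbxa2r, 54.8% for Ednra and 50.4% for Edn1, beside a median of 52.4% over all windows. These matches describe the letters only.

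On a scale that allows genes to be compared, CPM per kilobase of annotated exon averaged over the 26 libraries, the enzyme and the ligand came first. Ace had 69.7 ± 23.5 (SD, n = 26) and Edn1 27.0 ± 11.2 (SD, n = 26), and Ace lay above Edn1 in 26 of 26 libraries. The next 4 lay close together. Tbxa2r had 10.3 ± 3.95, Ednrb 9.08 ± 2.35, Avpr1a 8.52 ± 3.24 and Ednra 6.33 ± 1.50 (SD, n = 26 each). Neighbours in this order were not separated from each other: Tbxa2r exceeded Ednrb in 14 of 26 libraries, Ednrb exceeded Avpr1a in 12 and Avpr1a exceeded Ednra in 18. The serotonin receptors and Agtr1a were lowest, with 1.74 ± 0.414 for Htr2a, 1.34 ± 0.796 for Htr1b, 0.835 ± 0.294 for Agtr1a and 0.256 ± 0.217 for Htr2b (SD, n = 26 each). Ednra exceeded Htr2a in 26 of 26 libraries, while Htr2a exceeded Htr1b, and Htr1b exceeded Agtr1a, in 17 of 26 each. The choice of length mattered for Tbxa2r and Agtr1a. With the canonical transcript in place of all exons, chosen after seeing the data, Tbxa2r had 22.4 and lay above Ednrb in 26 of 26 libraries, and Agtr1a had 1.68 and lay above Htr1b in 18 of 26.

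**Figure D1:**
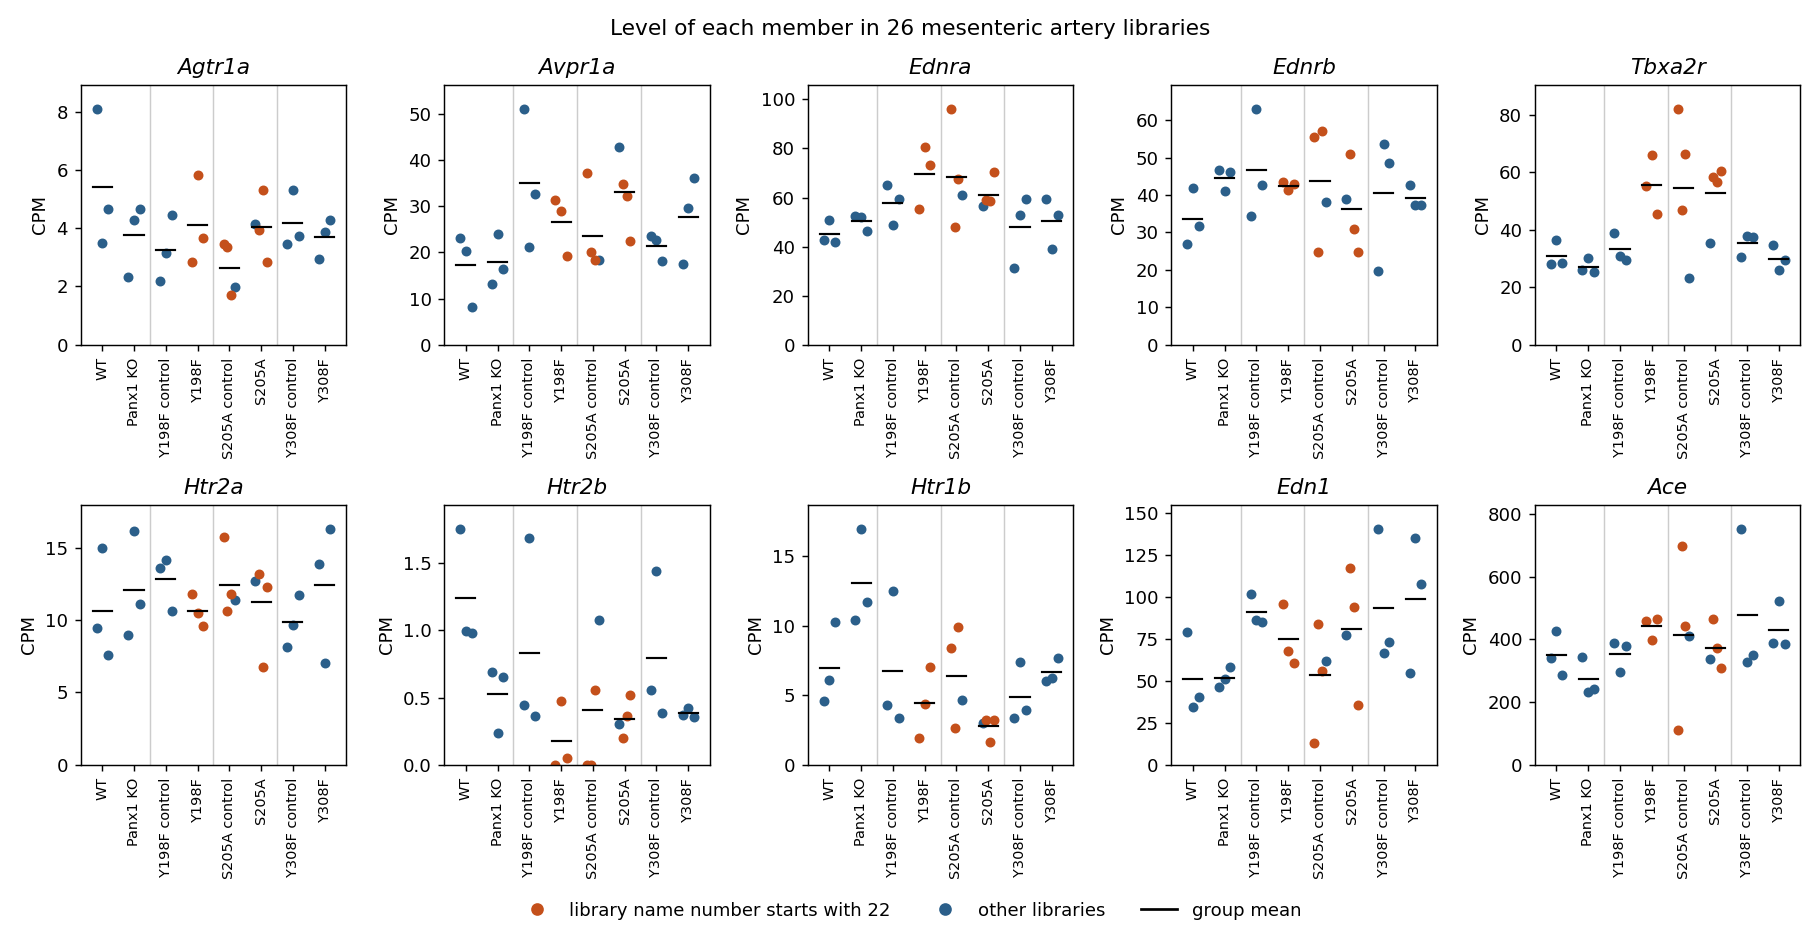
Level of each gene in CPM (vertical axes, from 0) in the 26 libraries, one panel per gene and one column per group, with points for libraries and a bar for the group mean. Orange points are the 9 libraries of the 22 series. In the Tbxa2r panel every orange point lies above every blue one, from 45.4 to 82.1 against 23.1 to 38.9 CPM.

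Edn1 (ENSMUSG00000021367, chromosome 13, 42446301 to 42461466, plus strand of GRCm39) encodes preproendothelin, and its level moved over a 10.7-fold range between libraries, with mutants and controls overlapping in all 4 lines. It had 79.1, 34.6 and 40.1 CPM in wild type and 46.5, 51.0 and 58.1 in the knockout. It had 102, 86.6 and 85.0 CPM in the Y198F controls and 95.7, 68.1 and 60.4 in the Y198F mutants. The knockout libraries all fell inside the wild-type range, and the Y198F groups overlapped through mutant 1. In the S205A line the controls had 13.2, 83.7, 55.7 and 62.0 CPM and the mutants 77.6, 117, 94.3 and 35.9. In the Y308F line the controls had 141, 66.7 and 73.5 CPM and the mutants 54.5, 135 and 108. Both of these pairs overlapped, with the lowest value of all in S205A control 1 and the highest in Y308F control 1. Fold changes of Edn1 on the log2 scale were 0.04 (SE 0.315) in the knockout, -0.29 (SE 0.165) in Y198F, 0.60 (SE 0.515) in S205A and 0.09 (SE 0.407) in Y308F. None passed the threshold, an edgeR adjusted p-value under 0.05 over all genes tested, with values of 0.976, 0.286, 1.00 and 0.989 in that order. Without Y198F mutant 1 the Y198F value was -0.51 and passed, at an edgeR adjusted p-value of 0.0241, and against the 3 S205A controls of the 22 series it was 0.55.

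Ace (ENSMUSG00000020681, chromosome 11, 105858469 to 105880790, plus strand) encodes the angiotensin-converting enzyme, the most abundant of the 10 genes. It had 341, 426 and 286 CPM in wild type and 344, 233 and 241 in the knockout. It had 390.0, 295 and 378 CPM in the Y198F controls and 460.0, 398 and 466 in the mutants. The knockout overlapped wild type through knockout library 1, while the Y198F mutants all lay above their controls. The S205A controls had 111, 697, 444 and 411 CPM and the mutants 338, 464, 373 and 309. The Y308F controls had 754, 328 and 349 CPM and the mutants 388, 523 and 384. In both lines the mutants fell inside the range of their controls, which included the lowest library of all 26, S205A control 1, and the highest, Y308F control 1. The log2 fold changes were -0.34 (SE 0.194), 0.31 (SE 0.131), -0.16 (SE 0.440) and -0.14 (SE 0.331) for knockout, Y198F, S205A and Y308F. The edgeR adjusted p-values were 0.554, 0.140, 1.00 and 0.985. Separation with the mutant higher was seen in 19.0% of all genes tested in Y198F. Against the 3 S205A controls of the 22 series the Y198F value of Ace was 0.07, and the mean endothelial marker sum was 5189 CPM in the Y198F mutants and 4560 in their controls. The markers behind that sum did not move together, since Cldn5 was higher and Erg lower at 0.59 and -0.54 on the log2 scale, and the other 6 did not pass. The 2 with most weight in the sum, Pecam1 and Vwf, had 0.01 (edgeR adjusted p-value 0.981) and 0.58 (edgeR adjusted p-value 0.0656).

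Across the 26 libraries, whatever their genotype, Ace followed the summed level of 8 endothelial markers. On log2 scales Pearson's r was 0.964 and Spearman's coefficient 0.903, each with a permutation p of 1e-05, the smallest that 100000 permutations can give, and a Benjamini-Hochberg adjusted p of 0.00018 over the 18 relations computed (9 genes with 2 marker lists). Without S205A controls 1 and 2, the libraries farthest from the median marker sum, r was 0.922. Within the 22 series r was 0.983 (n = 9, exact permutation p 0.000196), and within the other libraries it was 0.955 (n = 17). Edn1 showed the same direction less tightly, with r 0.768 (permutation p 4e-05, adjusted p 0.00036) and Spearman's coefficient 0.551 (adjusted p 0.0167). Without the same 2 libraries its r was 0.601, and it was 0.855 in the 22 series (n = 9, exact permutation p 0.0176) and 0.629 in the other 17. Against the smooth muscle sum Edn1 had r -0.518 (adjusted p 0.0198) but Spearman's coefficient -0.301 (adjusted p 0.319), and its r was -0.367 without the 2 libraries farthest from the median of that sum, -0.739 in the 22 series (n = 9, exact permutation p 0.0214) and -0.261 in the other 17. S205A control 1, with the lowest endothelial sum, had the lowest Ace and Edn1, and Y308F control 1, with an endothelial sum of 9775 CPM, had the highest of both. In bulk arteries fewer cells of a type and less RNA per cell cannot be told apart.

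**Figure D2:**
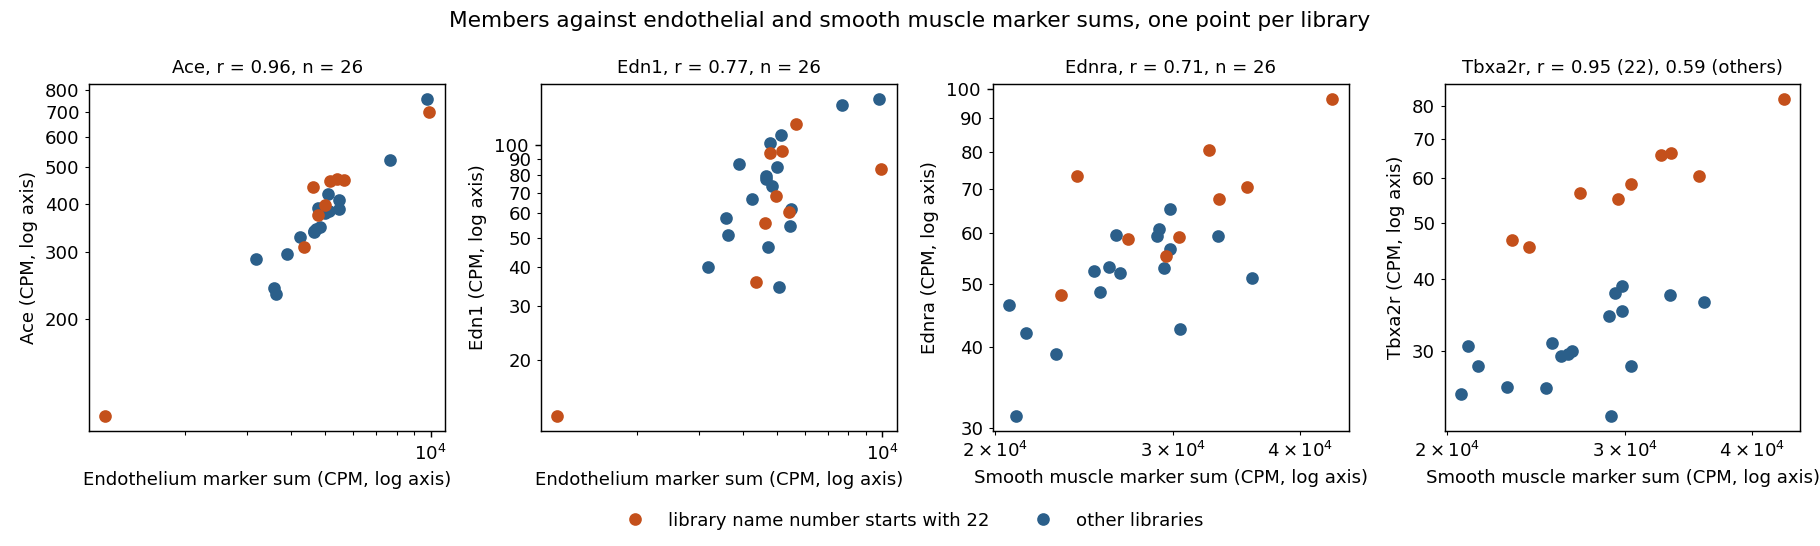
Levels of Ace, Edn1, Ednra and Tbxa2r (vertical, CPM, log axis) against the summed CPM of 8 endothelial or 8 smooth muscle markers (horizontal, log axis), with one point per library and orange for the 22 series. Ace lies close to a line over the whole range, and Tbxa2r forms 2 bands, the 22 series above the others.

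Ednra (ENSMUSG00000031616, chromosome 8, 78386590 to 78451552, minus strand) encodes the endothelin receptor of smooth muscle that drives contraction. It had 42.6, 51.0 and 42.1 CPM in wild type and 52.4, 51.9 and 46.4 in the knockout. It had 65.2, 48.6 and 59.5 CPM in the Y198F controls and 55.2, 80.4 and 73.5 in the mutants. Both pairs of groups overlapped. In the S205A line it had 96.3, 48.1, 67.6 and 60.9 CPM in controls and 56.7, 59.0, 58.7 and 70.5 in mutants, and in the Y308F line 31.3, 52.8 and 59.3 in controls and 59.3, 39.0 and 53.1 in mutants. Again the mutants overlapped their controls, and S205A control 1, which had the lowest Edn1, had the highest Ednra. Ednra had log2 fold changes of 0.17 (SE 0.113), 0.26 (SE 0.150), -0.16 (SE 0.193) and 0.09 (SE 0.250) for knockout, Y198F, S205A and Y308F. The edgeR adjusted p-values ran from 0.281 to 1.00.

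Ednra followed the smooth muscle marker sum, with r 0.712 (permutation p 0.0001, adjusted p 0.0006) and Spearman's coefficient 0.610 (adjusted p 0.0087) over 26 libraries. Without S205A control 1 and Panx1 KO 3, the farthest from the median, r was 0.616. Within the 22 series it was 0.725 (n = 9, exact permutation p 0.0271) and within the others 0.632 (n = 17). Against the endothelial sum r was -0.525 (adjusted p 0.0222), but Spearman's coefficient was -0.06 and r was -0.26 without S205A controls 1 and 2 (permutation p 0.208), where Spearman's coefficient was 0.136. Within the 22 series this r was -0.816 (n = 9, exact permutation p 0.00449) and within the others -0.382 (n = 17, permutation p 0.13), where Spearman's coefficients were -0.583 and 0.152. With group means and the series removed it was -0.693, and Spearman's coefficient -0.462. Once group means and the library series were removed, Ednra and its ligand gene Edn1 ran in opposite directions over the 26 libraries. Their r was -0.776 and Spearman's coefficient -0.750, given as a description, and without that removal r was -0.521. The opposition was not particular to this pair. With group means and series removed, r was -0.693 for Ednra with Ace, -0.608 for Tbxa2r with Edn1 and -0.598 for Tbxa2r with Ace.

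Ednrb (ENSMUSG00000022122, chromosome 14, 104052053 to 104081900, minus strand) encodes the second endothelin receptor. It had 26.9, 41.9 and 31.7 CPM in wild type and 46.5, 41.0 and 46.2 in the knockout. It had 34.3, 63.1 and 42.7 CPM in the Y198F controls and 43.4, 41.2 and 42.9 in the mutants. The knockout mean was higher than that of wild type, with 1 wild-type library, 41.9 CPM, above the lowest knockout value, and the Y198F mutants fell inside the range of their controls. In the S205A line it had 55.4, 24.8, 57.0 and 38.1 CPM in controls and 38.8, 50.9, 31.0 and 24.7 in mutants, and in the Y308F line 19.7, 53.7 and 48.5 in controls and 42.7, 37.4 and 37.3 in mutants. These groups overlapped too. The knockout log2 fold change was 0.43 (SE 0.161) with an unadjusted p of 0.0247 and an edgeR adjusted p-value of 0.396. The values in Y198F, S205A and Y308F were -0.14 (SE 0.194), -0.27 (SE 0.294) and -0.04 (SE 0.339), with edgeR adjusted p-values from 0.689 to 1.00. Against the endothelial sum r was -0.489 (adjusted p 0.0292), Spearman's coefficient was -0.296 (adjusted p 0.319), and r was -0.363 without S205A controls 1 and 2, -0.494 in the 22 series (n = 9, exact permutation p 0.201) and -0.526 in the others (n = 17). The ratio of Ednra to Ednrb in CPM ran from 0.771 to 2.85 with a median of 1.39, and it was above 1 in 24 of 26 libraries. Taken per kilobase of canonical transcript, since the Ednra transcript is longer, the median ratio was 0.780 and the ratio was above 1 in 5 of 26.

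Tbxa2r (ENSMUSG00000034881, chromosome 10, 81163948 to 81171025, plus strand), the thromboxane receptor, was the 1 gene of the 9 tested that passed the threshold in a comparison, and its difference ran with the library series. It had 38.9, 30.9 and 29.6 CPM in the Y198F controls and 55.1, 65.8 and 45.4 in the Y198F mutants. Every mutant lay above every control. The log2 fold change was 0.74 (SE 0.153) at an edgeR adjusted p-value of 0.00941, where 15.0% of all genes tested passed in that comparison. Of the 8 smooth muscle markers, Tagln at 1.14 and Smtn at 0.54 were higher and Lmod1 at -0.48 was lower in the same comparison (edgeR adjusted p-values 0.00361, 0.0164 and 0.0161), and 5 did not pass. Of 6 Schwann cell markers, Mbp at -0.85 and Cdh19 at -0.85 were lower (edgeR adjusted p-values 0.0125 and 0.0202). The 6 fibroblast markers had a median log2 fold change of -1.04 and the 4 lymphatic endothelial markers one of -0.95. For the 5 macrophage markers it was -0.60, and for the 6 adipocyte markers it was 1.07. With edgeR 0 of any of these lists passed. The adipocyte sum was 129, 328 and 1481 CPM in the mutants and 251, 295 and 366 in the controls. Of the 8 endothelial markers, Cldn5 at 0.59 was higher and Erg at -0.54 lower (edgeR adjusted p-values 0.00430 and 0.00838). Their part in the Tbxa2r difference was not tested. With all 8 groups in a single fit and no series term the Tbxa2r value was 0.74 (SE 0.291, edgeR adjusted p-value 0.137). Without Y198F control 3 the value was 0.66 at an edgeR adjusted p-value of 0.0617.

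The S205A line, which holds libraries of both series in each group, lets the series be compared within groups. Its controls had 82.1, 46.7, 66.2 and 23.1 CPM and its mutants 35.2, 58.4, 56.5 and 60.3. Control 4 and mutant 1 are the libraries outside the 22 series, and they were the lowest of their groups. Over all groups Tbxa2r ran from 45.4 to 82.1 CPM in the 9 libraries of the 22 series and from 23.1 to 38.9 in the other 17, without overlap. Adjusted for group, the series difference was 1.08 (SE 0.201) on the log2 scale at an edgeR adjusted p-value of 0.000976, where 11.7% of all genes passed. The spread in that fit is drawn from all groups, but the difference itself rests on the S205A line, the only one with both series in a group. The value from that line alone is therefore not a separate estimate. Within the S205A line alone it was 1.09 at an edgeR adjusted p-value of 0.0362, and in the fit of all groups without S205A control 4 it was 0.72 at an edgeR adjusted p-value of 0.212. None of the other 9 genes passed this test. With the series as a term, the Y198F fold change of Tbxa2r was -0.34, and against the 3 S205A controls of the 22 series it was -0.23 (edgeR adjusted p-value 1.00 in both). Both values draw on libraries of the S205A line, so they are not independent. In the authors' deposited table for Y198F, Tbxa2r is listed at 0.02 on the log2 scale (adjusted p-value 0.998). Recomputed from the counts, the authors' deposited table was matched by a contrast with the S205A controls, where none of 18991 genes was off by more than 0.00016 on the log2 scale. Against the labelled Y198F controls genes were off by up to 7.51.

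**Figure D3:**
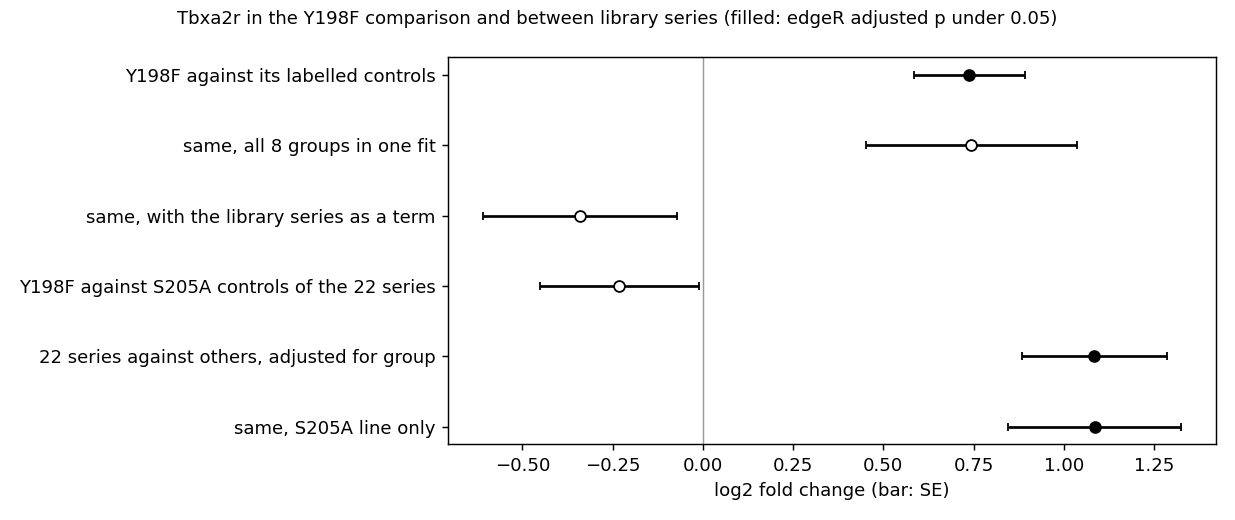
Log2 fold change of Tbxa2r (horizontal axis, bars show the SE) for Y198F under 4 choices of control or model, and for the 22 series against the other libraries under 2. Filled points have an edgeR adjusted p-value under 0.05. The Y198F value is 0.74 against the labelled controls and lies below 0 in both estimates that take the series into account. Both of these draw on libraries of the S205A line, so they are not independent, and neither passed.

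The knockout and Y308F lines hold no library of the 22 series, so they carry no information on it. There Tbxa2r had 28.2, 36.4 and 28.2 CPM in wild type and 25.8, 30.0 and 25.2 in the knockout, and 30.6, 37.8 and 37.5 in the Y308F controls and 34.5, 25.9 and 29.4 in the Y308F mutants. Both pairs overlapped. Its log2 fold changes were -0.17 (SE 0.139) in the knockout, -0.05 (SE 0.347) in S205A and -0.23 (SE 0.146) in Y308F, with edgeR adjusted p-values of 0.674, 1.00 and 0.940. Because its libraries fall into 2 bands, the relation to the smooth muscle markers was read within each. It was r 0.950 and Spearman's coefficient 0.917 in the 22 series (n = 9, exact permutation p 0.000311 for r) and r 0.594 and Spearman's coefficient 0.581 in the other 17 libraries (permutation p 0.0126 for r). Against the endothelial sum it was r -0.824 and Spearman's coefficient -0.767 in the 22 series (n = 9, exact permutation p 0.0062 for r) and r -0.0384 in the other 17 (permutation p 0.886).

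Avpr1a (ENSMUSG00000020123, chromosome 10, 122284404 to 122289659, plus strand) encodes the vasopressin receptor of vascular muscle. Its level ran from 8.18 CPM in wild-type library 3 to 51.2 in Y198F control 1, and mutants and controls overlapped in all 4 lines. Means were 17.3 ± 7.99 (SD, n = 3) in wild type against 17.8 ± 5.48 (SD, n = 3) in the knockout, and 35.1 ± 15.1 (SD, n = 3) in the Y198F controls against 26.5 ± 6.41 (SD, n = 3) in the mutants. They were 21.4 ± 2.88 (SD, n = 3) against 27.7 ± 9.54 (SD, n = 3) in the Y308F line. S205A libraries had 37.2, 20.2, 18.4 and 18.4 CPM of Avpr1a in controls and 42.8, 34.9, 32.2 and 22.6 in mutants, with control 1 the only control inside the range of the mutants. Avpr1a had log2 fold changes of 0.07 (SE 0.411), -0.41 (SE 0.361), 0.49 (SE 0.267) and 0.38 (SE 0.252) for knockout, Y198F, S205A and Y308F, with edgeR adjusted p-values from 0.534 to 1.00. Without S205A control 1 the S205A value was 0.80 at an edgeR adjusted p-value of 0.704, and within the 22 series it was 0.25. Avpr1a showed no relation past the threshold to either marker sum, with r 0.354 to smooth muscle (adjusted p 0.116) and -0.0162 to endothelium (adjusted p 0.937).

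Agtr1a (ENSMUSG00000049115, chromosome 13, 30518942 to 30566850, plus strand) encodes an angiotensin II receptor, and it was among the lowest of the 10, with 31 to 157 counts per library. Agtr1a had 8.12, 3.49 and 4.68 CPM in wild type and 2.33, 4.29 and 4.68 in the knockout, and 2.18, 3.15 and 4.47 in the Y198F controls and 2.82, 5.83 and 3.68 in the mutants. In the S205A line it had 3.47, 3.35, 1.72 and 1.99 CPM in controls and 4.14, 3.93, 5.32 and 2.84 in mutants, and in the Y308F line 3.45, 5.31 and 3.75 in controls and 2.94, 3.89 and 4.27 in mutants. Its range was 1.72 to 8.12 CPM, and mutants and controls overlapped in every line. The log2 fold changes were -0.50 (SE 0.377) in the knockout, 0.32 (SE 0.373) in Y198F, 0.62 (SE 0.346) in S205A and -0.16 (SE 0.291) in Y308F, with edgeR adjusted p-values from 0.623 to 1.00. Rodents carry a second gene for this receptor, Agtr1b, and in these arteries it was the more abundant copy. Agtr1b ran from 12.2 to 29.4 CPM, and its ratio to Agtr1a ran from 2.78 to 12.6 in CPM, with a median of 5.05. Per kilobase of all annotated exons the ratio ran from 5.30 to 24.1, with a median of 9.64. That ratio depends on the length chosen, since Agtr1a has 4612 bases over all exons and 2286 in the canonical transcript. It was not computed with canonical lengths. Agtr1b had log2 fold changes of 0.09 (SE 0.181), 0.23 (SE 0.154), 0.07 (SE 0.234) and 0.23 (SE 0.248) in the 4 comparisons, with edgeR adjusted p-values from 0.365 to 1.00. The paralogs are alike in sequence, so reads could have been split between them, and the values of both are uncertain to that extent.

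Htr2a (ENSMUSG00000034997, chromosome 14, 74877344 to 74946934, plus strand) encodes the main contractile serotonin receptor of large arteries, and its highest level was 2.42 times its lowest, from 6.76 to 16.3 CPM, the narrowest such range of the 10. Htr2a had 9.46, 15.0 and 7.56 CPM in wild type and 8.95, 16.1 and 11.1 in the knockout, and 13.6, 14.2 and 10.7 in the Y198F controls and 11.8, 10.5 and 9.59 in the mutants. In the S205A line it had 15.8, 10.6, 11.8 and 11.4 CPM in controls and 12.7, 13.2, 6.76 and 12.3 in mutants, and in the Y308F line 8.11, 9.68 and 11.7 in controls and 13.9, 7.02 and 16.3 in mutants. Mutants and controls overlapped in each line. Its log2 fold changes were 0.20 (SE 0.299), -0.28 (SE 0.184), -0.14 (SE 0.238) and 0.34 (SE 0.306) for knockout, Y198F, S205A and Y308F, with edgeR adjusted p-values from 0.364 to 1.00. It followed the smooth muscle marker sum with r 0.518 (adjusted p 0.0198), while Spearman's coefficient, 0.456, had an adjusted p of 0.0603. Without the 2 farthest libraries r was 0.493, and it was 0.662 in the 22 series (n = 9, exact permutation p 0.0514) and 0.513 in the other 17.

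Htr1b (ENSMUSG00000049511, chromosome 9, 81510344 to 81515902, minus strand) encodes a serotonin receptor that couples to inhibitory G proteins, and it lay higher in the knockout and lower in S205A mutants without passing the threshold in either. It had 4.55, 6.10 and 10.3 CPM in wild type and 10.4, 17.0 and 11.7 in the knockout. Every knockout library lay above every wild-type library, though 10.4 and 10.3 CPM nearly touched. Such separation with the mutant higher was seen in 8.24% of all genes tested in that comparison. The knockout log2 fold change was 0.92 (SE 0.318) with an unadjusted p of 0.0185. Its edgeR adjusted p-value was 0.373, and 0.0309% of genes passed. With no filter on low counts the edgeR adjusted p-value was 0.00463, and over the 6 alternatives other than leaving out libraries it ran to 0.759.

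In the S205A line Htr1b had 8.40, 2.65, 9.94 and 4.64 CPM in controls and 3.00, 3.21, 1.61 and 3.22 in mutants. The mutants lay low, and control 2 fell among them. The log2 fold change was -1.21 (SE 0.428) with an unadjusted p of 0.0177 and an edgeR adjusted p-value of 1.00, where 2.87% of all genes had an unadjusted p under 0.05. Between the same libraries the 6 fibroblast markers had a median log2 fold change of 1.40, with sums of 992 to 1442 CPM in controls and 1434 to 4197 in mutants, and the 6 Schwann cell markers one of 1.04. With edgeR 0 of either list passed, and their part in the Htr1b difference was not tested. In the Y198F line it had 4.31, 12.5 and 3.38 CPM in controls and 1.96, 4.35 and 7.04 in mutants, and in the Y308F line 3.36, 7.37 and 3.91 in controls and 6.04, 6.21 and 7.68 in mutants. Both pairs overlapped, with log2 fold changes of -0.60 (SE 0.631) and 0.46 (SE 0.319) and edgeR adjusted p-values of 0.597 and 0.940. Htr1b ran against the endothelial marker sum over the 26 libraries, with r -0.438 (adjusted p 0.0436) and Spearman's coefficient -0.538 (adjusted p 0.0186). The relation was -0.440 without the 2 farthest libraries, -0.478 in the 22 series (n = 9, exact permutation p 0.201) and -0.587 in the other 17. The mean endothelial sum was 3983 CPM in the knockout and 4310 in wild type, and its part in the knockout difference was not tested.

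Htr2b (ENSMUSG00000026228, chromosome 1, 86026748 to 86039736, minus strand), a further serotonin receptor, was close to the limit of detection, with 0 to 34 counts per library. It passed the filter on low counts in the knockout comparison and in no other of the 4. There it had 34, 18 and 19 counts in wild type and 13, 5 and 13 in the knockout, or 1.76, 0.998 and 0.977 against 0.688, 0.236 and 0.654 CPM. Every knockout library lay below every wild-type library, as in 10.5% of genes tested, but Htr2b passed the filter through its wild-type counts, so its separation and fold change are a description only. The log2 fold change was -1.22 (SE 0.572) at an edgeR adjusted p-value of 0.468. In the other 6 groups counts ran from 0 to 30. Htr2b lies inside Psmd1, which is transcribed from the opposite strand, and whether counting used the strand is not given in the sources used here, so a count this low cannot be assigned to Htr2b with certainty. Ednra, Htr1b, Edn1, Ace and Avpr1a also share exonic bases with annotated noncoding or provisional genes on the other strand, so their counts carry an uncertainty of the same kind.

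**Figure D4:**
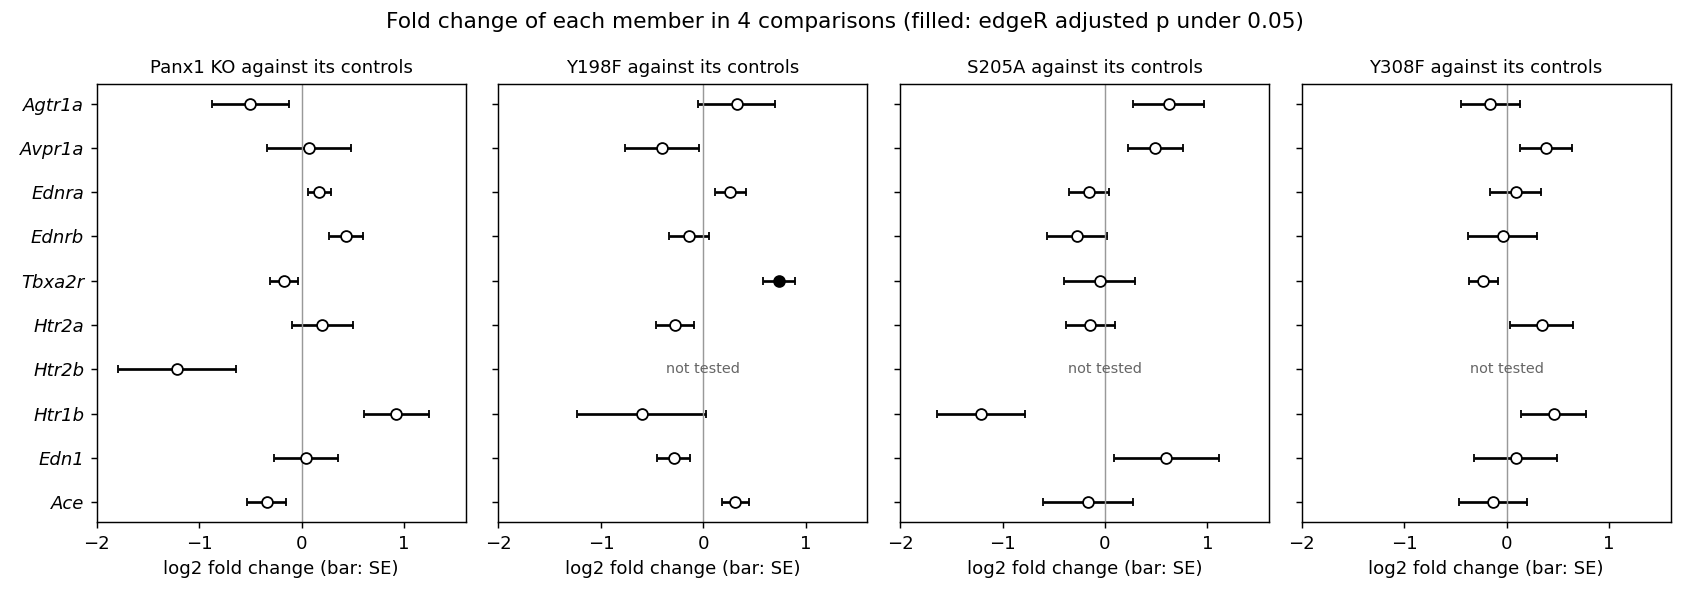
Log2 fold change (horizontal axis, bars show the SE) of each gene in the 4 comparisons of a mutant with its labelled controls. The filled point, Tbxa2r in Y198F at 0.74, has an edgeR adjusted p-value under 0.05, and all other points are open. Htr2b was not tested in 3 comparisons because its counts were too low.

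Counted together, 0 of 10 genes passed the threshold in the knockout, 1 of 9 in Y198F, 0 of 9 in S205A and 0 of 9 in Y308F, where 0.0309%, 15.0%, 0% and 0% of all genes tested passed with edgeR. At an unadjusted p under 0.05 the counts were 2 (Htr1b and Ednrb), 2 (Tbxa2r and Ace), 1 (Htr1b) and 0, beside 11.2%, 29.1%, 2.87% and 4.40% of all genes. With 1 library left out at a time these counts ran from 1 to 2 in the knockout, 1 to 3 in Y198F, 0 (without S205A control 3) to 3 (without S205A control 1) in S205A and 0 to 1 in Y308F. With all 8 groups in a single fit the count was 0 in the knockout, with or without the series term, and in Y198F it was 1 without that term and 0 with it. Without the filter on low counts it was 3 in the knockout, 5 in Y198F and 1 in Y308F. DESeq2 gave the same counts of members past its threshold in each comparison, and over all genes it gave 117, 2668, 47 and 0. Leaving aside Htr2b, mutant and control libraries were fully separated for 1 (Htr1b), 2 (Tbxa2r and Ace), 0 and 0 of the other 9 genes, beside 18.8%, 34.2%, 1.81% and 10.7% of all genes tested. The authors' deposited tables list 0 of these genes past their threshold in any comparison. Whether the 4 mutation effects differ was tested jointly in 1 model with the library series as a term. There 0 of 10 passed, beside 0.0160% of all genes, and Htr1b had the smallest p, 0.0253 unadjusted, at an edgeR adjusted p-value of 1.00.

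The other genes of these pathways were read from a list of 65 that covers hormone synthesis and breakdown, further receptors and the machinery of contraction. In the knockout 0 of 49 tested passed, in S205A 0 of 46 and in Y308F 0 of 49, with median log2 fold changes of -0.02, -0.05 and 0.05 beside 0.01, -0.01 and -0.03 over all genes. At an unadjusted p under 0.05 the list held 4 of 49, 0 of 46 and 2 of 49 genes in these 3 comparisons, beside 11.2%, 2.87% and 4.40% of all genes. In Y198F 5 of 48 were higher and 6 lower with a median of -0.09, beside 9.55% of all genes higher and 5.48% lower and a median of 0.00, and 17 of 48 had an unadjusted p under 0.05, beside 29.1% of all genes. The 5 with the smallest p were Gna12, Arhgef1, Ptgis, Gna11 and Gnaq, with edgeR adjusted p-values from 0.00266 to 0.00944. Gna12 and Gna11, which encode G protein alpha subunits, had log2 fold changes of 0.60 (SE 0.0988) and 0.47 (SE 0.0957), and Gnaq, which encodes another, had -0.50 (SE 0.106). Arhgef1, a guanine nucleotide exchange factor, had 0.55 (SE 0.0949), and Ptgis, the synthase of the vasodilator prostacyclin, had 0.57 (SE 0.113). With the series as a term their values were -0.06 for Gna12, 0.05 for Gna11, 0.16 for Gnaq, 0.04 for Arhgef1 and -0.07 for Ptgis, and none of the 5 passed. On the supply side, the angiotensin precursor gene Agt averaged 2.59 CPM and the renin gene Ren1 0.268, while Ece1, which encodes the enzyme that completes endothelin, averaged 387. The genes for thromboxane synthase, Tbxas1, and tryptophan hydroxylase, Tph1, averaged 0.959 and 0.0239 CPM.

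The genes whose level ran most like each of the 9 better-measured genes over the 26 libraries, once group means and the series were removed, are given as a description. Ace ran with Cdh5, an endothelial adhesion gene that is also 1 of the 8 endothelial markers, at r 0.986, and with Tmem158 at 0.984. Edn1 ran with Gata6 at 0.912 and Fam43a at 0.909, and Ednra with Lclat1 at 0.957 and Aoc3 at 0.929. For Tbxa2r they were Slc25a4 at 0.908 and Chpf at 0.906, for Avpr1a 2310022B05Rik at 0.888 and Eif4ebp2 at 0.873, and for Ednrb Abraxas1 at 0.879 and Dzip1 at 0.845. For Htr2a they were Bcar3 at 0.842 and Nacad at 0.821, for Htr1b Naa80 at 0.824 and Dhtkd1 at 0.821, and for Agtr1a Klhl33 at 0.780 and Gm46404 at 0.743. Among the 9 themselves on the same scale, Edn1 and Ace ran together at r 0.781, Ednra and Tbxa2r at 0.693, Tbxa2r and Htr2a at 0.607, and Ednrb and Htr1b at 0.559. Pairs of like size ran in opposite directions. They were Ednra and Edn1 at -0.776, Ednra and Ace at -0.693, Tbxa2r and Edn1 at -0.608, and Tbxa2r and Ace at -0.598. All of these values share the same 26 libraries. The genes outside the 10 were taken as the 2 highest of 12895, and the pairs among the 9 were picked for their size, so none carries a test.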

How the data were processed

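The authors mapped paired reads to GRCm39 with STAR 2.7.9a and obtained whole-number counts per gene with featureCounts, per the labels' design text and the submitters' processing notes. Depth is given at the start of the report. They also deposited a normalized signal, in which each library was scaled by 1 factor. The authors' comparison tables were made with DESeq2 1.46.0, per the submitters' processing notes, and hold deposited base means (signal), log2 fold changes, a test score and p-values.

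Each mutant was compared with its labelled controls by edgeR 4.0.16's quasi-likelihood test in R 4.3.3, with TMM scaling, filterByExpr and Benjamini-Hochberg adjustment over all genes tested. DESeq2 1.42.0, DESeq2 size factors, no filter, a replicate block, all groups in one fit, the library series as a term and leaving out each library were alternatives. CPM used TMM factors over all 26 libraries, with a prior count of 2 on the log2 scale. Lengths and coordinates come from GENCODE vM39, and marker relations used two-sided permutation tests of log2 values (numpy 2.4.6), exact for 9 libraries. The scripts were tested on simulated data. All 10 genes were named by rule, with up to 5 pathway genes per comparison by smallest p and the 2 most alike genes of each. The members and lists were chosen with earlier results of these data known.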

Additional observations from a re-analysis of the deposited data

Results flagged for a closer look

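Within the S205A groups of 4, single libraries stood apart from the other 3 in 5 of the 24 sets of values examined, 20 of members and 4 of marker sums, where chance flags about 1 in 20. The sets share the same libraries and are not independent, so this count is not a test of an excess. Among the controls, Avpr1a was highest in control 1 at 37.2 CPM, beside 18.4 to 20.2 in the others. Among the mutants, Ednra was highest in mutant 4 at 70.5 CPM, Tbxa2r lowest in mutant 1 at 35.2, and Htr2a and Htr1b lowest in mutant 3 at 6.76 and 1.61. Ednra was barely flagged, its gap to the next value being 0.833 of the range where 0.829 is the critical value. Mutant 1 is the S205A mutant outside the 22 series, and its Tbxa2r lay inside the range of the other libraries outside that series, 23.1 to 38.9 CPM.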

How the results depend on the processing

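No member changed its call with DESeq2, with DESeq2 size factors inside edgeR or with the replicate number as a block, and the depth limits Htr2b most, at 34 counts or fewer per library. Over all genes the knockout count, 5, was 117 with DESeq2, 243 with no filter (where 1 member, Htr1b, passed) and 18 with the replicate block. The Y198F count, 2411, was 922 when a single fit took all 8 groups, 0 with the series as a term and 0 against the S205A controls of the 22 series, and 0 members passed in these 3. With the replicate block the Y198F count was 1760 and Tbxa2r still passed. Same-numbered libraries deviated together at r over 0.1 in 2 of 3, 1 of 3, 1 of 4 and 0 of 3 pairs (knockout, Y198F, S205A, Y308F), so the numbers were not taken to pair them. The S205A count, 0, was 47 with DESeq2, and the Y308F count, 0, was 7 with no filter. The series difference, 2189 genes, was 902 within the S205A line alone.

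Some fold changes turned sign. Against the S205A controls of the 22 series the Y198F values were 0.0697 for Avpr1a, -0.0218 for Ednra, -0.23 for Tbxa2r and 0.55 for Edn1, and with the series as a term Tbxa2r had -0.34. In S205A, Tbxa2r had 0.0581 with the replicate block and 0.0297 with the series term, and Ace 0.0598 with the block. In Y308F, Ednrb had 0.0680 with the block. Of the 269 such values of members, 258 kept their direction and side of the threshold. Relations to the endothelial sum turned for Avpr1a (0.33 without the 2 farthest libraries, 0.32 outside the 22 series), Agtr1a (0.0299 in the 22 series) and Tbxa2r (0.0104 without the 2 farthest). That of Htr1b to the smooth muscle sum was 0.42 in the 22 series and 0.16 after removing group means. None of these had passed with all libraries. For Ednra and the endothelial sum, whose r had passed, r kept its sign while Spearman's coefficient turned from -0.0619 to 0.136 without the 2 farthest and was 0.152 outside the 22 series. The cause was not tested in any of these cases.

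Leaving out 1 library at a time gave 1 to 5 genes past the threshold in the knockout, 908 to 2128 in Y198F, 0 to 1 in S205A, 0 to 1 in Y308F, 2 to 4 in the joint test and 282 to 2404 for the series difference. The lowest of these came without Y198F control 3 (908) and without S205A control 4 (282), while the Y198F count was 1546 without Y198F control 1 and the series count 932 without S205A mutant 1. Members past the threshold were 0 in every such knockout, S205A, Y308F and joint fit, 0 to 2 in Y198F and 0 to 1 for the series. Fold changes that turned sign in at least 1 such fit had these ranges. In the knockout Avpr1a ran from -0.27 to 0.34, Htr2a from -0.0733 to 0.53 and Edn1 from -0.18 to 0.49. In Y198F Agtr1a ran from -0.0179 to 0.61, Ednrb from -0.32 to 0.13 and Htr1b from -1.09 to 0.20. In S205A Ednra ran from -0.30 to 0.0569, Tbxa2r from -0.30 to 0.21, Htr2a from -0.23 to 0.0338 and Ace from -0.48 to 0.20. In Y308F Agtr1a ran from -0.27 to 0.0494, Ednra from -0.14 to 0.28, Ednrb from -0.37 to 0.21, Edn1 from -0.18 to 0.52 and Ace from -0.35 to 0.37. For the series difference Agtr1a ran from -0.0475 to 0.50, Avpr1a from -0.53 to 0.45, Ednrb from -0.13 to 0.26, Htr2a from -0.24 to 0.16, Htr2b from -2.62 to 0.24, Htr1b from -0.17 to 0.59, Edn1 from -0.38 to 0.12 and Ace from -0.20 to 0.31. No value in this list had passed the threshold with all libraries.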
